A study of Mus musculus with 147 samples.

Results

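Wild-type migrating germ cells of the mouse, sorted for the BVSC reporters, were taken at E10.5 and at E9.5 (E, embryonic day), by the genotype, gate and embryonic day in the names of the deposited cells, and kept where more than 2000 genes and 10000 to 1000000 unique molecular identifiers (UMIs) were counted. This left 494 of 504 cells, out of 13032 in the series, in 5 pools. Replicates 1 and 2 of E9.5 held 96 and 94 cells, and replicates 1 and 2 of E10.5 held 92 and 94 of its 304 cells, with the others in replicate 3. BVSC stands for Blimp1-mVenus and Stella-ECFP, a pair of fluorescent reporters driven by the regulatory elements of the germ cell genes Prdm1 and Dppa3. All embryos had transgenic fathers and C57BL/6 mothers, whole embryos were digested, and several embryos went into each replicate. Cells were picked singly and the barcoded cells of a library were amplified together, so the pool, not the cell, is the unit of each comparison. The labels do not say whether the pools of a time-point came from separate matings, and the tests measure only the spread between these pools. Pools held 28431692 to 32664530 UMIs, with a median of 273508 to 351934 UMIs and 8132 to 9424 genes per cell. Levels are given as UMIs per 1000000 UMIs of the pool (CPM), and since they are sums over cells, fewer cells expressing a gene and less RNA per cell cannot be told apart in them.

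Primordial germ cells (PGCs), the precursors of sperm and eggs, leave the hindgut and reach the forming gonads in the days compared here, E9.5 and E10.5 (embryonic days after mating). Over this journey they keep a pluripotency network (Pou5f1, Sox2, Nanog) that most embryonic cells shut off, and they erase most of the methyl groups on their DNA. A set of germline genes whose promoters are held silent by methylation in other cells, among them Dazl, Tex19.1 and Asz1, is known to come on late in this period.

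The cells carried the markers of the label. At least 5 of 8 germ cell markers (Pou5f1, Dppa3, Dnd1, Nanos3, Tfap2c, Prdm14, Kit, Nanog) had a UMI in all cells of 4 pools and in 91 of the 92 cells of E10.5 replicate 1. All 8 were present in at least 84 cells of each pool.

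Transcripts of 4 Y-linked genes (Ddx3y, Eif2s3y, Kdm5d and Uty, expressed wherever there is a Y chromosome) differed between pools within E10.5 as well as between the time-points. They summed to 180 and 164 CPM at E9.5, and to 5.44, 1.71 and 180 CPM in replicates 1, 2 and 3 of E10.5. At E9.5 the cells fell into separate classes: 40 of 96 and 42 of 94 cells were under 40 CPM (Y-low), and 54 and 52 cells were over 80 CPM (Y-high). In E10.5 replicates 1 and 2, 89 of 92 and 94 of 94 cells were Y-low, while in replicate 3 there were 75 Y-high and 28 Y-low cells, with 15 between. Only the cells of that replicate have a sex in their names, male. The methods describe selection of male embryos by PCR at the later time-point, and the libraries labelled E10.5 replicate 1 and 2 go against that. Xist, the long RNA that silences an X chromosome, stood at 18.95 and 7.81 CPM at E9.5 and at 10.2, 8.25 and 5.38 CPM at E10.5. These pools mix the classes. In Y-low cells Xist was at 40.5 and 16.8 CPM at E9.5 and at 10.4 and 8.25 CPM in E10.5 replicates 1 and 2, and it was not called there. In Y-high cells it was at 1.76 and 0.385 CPM at E9.5 and at 3.77 CPM in E10.5 replicate 3. In an exact permutation test over the pools (two-sided) p was 0.3 for the Y-linked sum and 0.5 for Xist, where 2 against 3 pools allow no p below 0.2. Calls within Y-low cells are given further on.

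Globin transcripts, which belong to red blood cells, were concentrated in one library. The 10 globin genes in the table summed to 30.5 and 47.4 CPM at E9.5 and to 61.4, 18.04 and 793 CPM in E10.5 replicates 1, 2 and 3. The globins of the first, yolk sac wave of red cells (Hbb-bh1, Hbb-y and Hba-x) summed to 6.34 and 2.08 CPM at E9.5 and to 0.0702, 1.58 and 429 CPM at E10.5. Two-sided exact permutation p was 0.7 for all globins and 1 for the embryonic ones. Replicate 3 consisted of a 24-cell and a 96-cell library. In the smaller, all 23 cells that passed the filter had more than 0.1% of their UMIs from globins and also more than 0.1% from 12 yolk sac endoderm markers (such as Apoa1 and Ttr, made by the layer that lines the yolk sac). That library held 4061 CPM of globin and 2235 CPM of yolk sac endoderm transcripts, against 19.03 and 330 CPM in its partner. It supplied 98.1% of the pool's globin UMIs. The 16 other red cell genes in the table summed to 450 and 462 CPM at E9.5 and to 421, 450 and 493 CPM at E10.5. Of these 16, 5 and 6 had no UMI at E9.5, and 7, 5 and 1 had none in E10.5 replicates 1, 2 and 3. Gata1, a factor that defines the red cell lineage, was at 3.42 CPM in replicate 3 and had no UMI in the other pools. The part of red cell RNA in the results below was not tested beyond fits without the 24-cell library, without globin genes, and in cells with little globin and endoderm RNA.

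**Figure D1:**
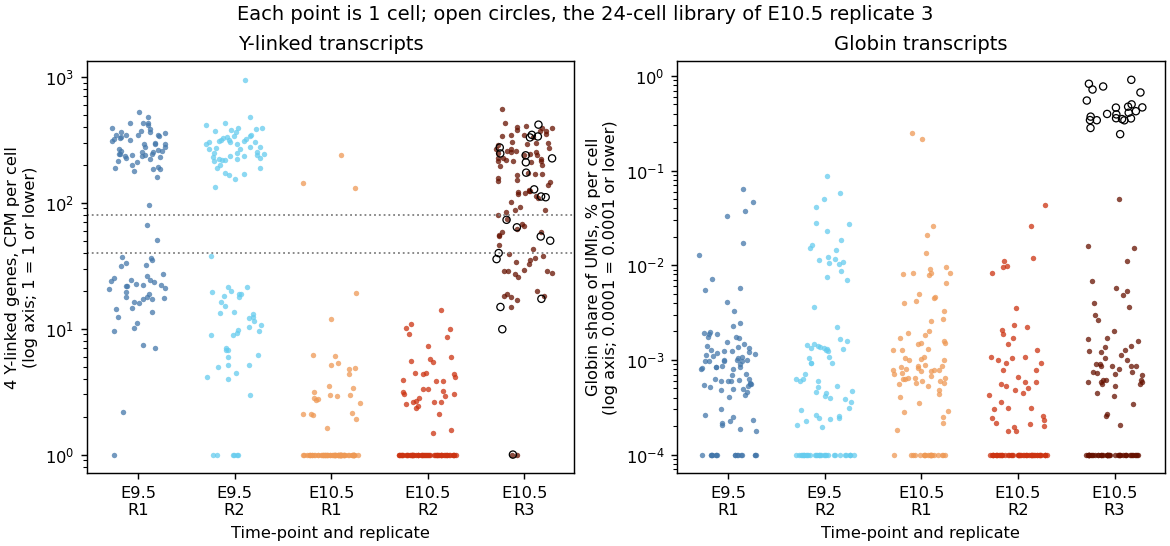
Levels in single cells by pool: left, the sum of 4 Y-linked genes in CPM on a log axis, with dotted lines at 40 and 80 CPM; right, the share of UMIs from globins in percent on a log axis. E10.5 replicates 1 and 2 have 3 cells and 0 cells above the upper line, where the other 3 pools have 52 to 75, and all 23 cells of the 24-cell library (open circles) lie above 0.1% globin. Cells at 0 are drawn at the lower end of each axis.

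Of 15676 genes tested between the time-points, 33 rose and 2 fell from E9.5 to E10.5 (edgeR quasi-likelihood test, false discovery rate, FDR, under 0.05). That is 0.211% and 0.0128% of the genes tested. In all 35 the pools of the time-points did not overlap, which held upwards for 12.7% and downwards for 12.4% of all genes tested. At an unadjusted p under 0.05, 5.22% of genes were higher and 2.99% lower at E10.5. DESeq2 called 289 genes higher and 79 lower, 1.76% and 0.482% of the genes it tested. No gene passed when either E9.5 pool was left out, where edgeR had 737 and 838 genes at an unadjusted p under 0.05 and a smallest FDR of 0.199 and 0.0581. The calls therefore rest on having both E9.5 pools, and all of them kept their direction without either.

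The largest family among the calls was the Rhox cluster, a row of homeobox genes on the X chromosome that is used in germ cells, gonads and placenta. Its 11 called members (Rhox2a, 2b, 2c, 2d, 2e, 2f, 2g, 2h, Rhox4c, Rhox5 and Rhox9) lie between chrX:37244976-37901770 (GENCODE M21, GRCm38). Rhox2e stood at 11.2 and 11.47 CPM at E9.5 and at 63.5, 56.6 and 84.9 CPM at E10.5, a log2 fold change of 2.62 ± 0.28 (SE, FDR = 0.00642). Rhox2a, the most abundant of the Rhox2 copies, stood at 31.5 and 44.1 CPM and at 135.04, 136.98 and 182 CPM (log2 fold change 2.02 ± 0.24). The levels of the last 2 members were higher throughout. Rhox5 went from 288 and 225 to 506, 539 and 721 CPM (1.23 ± 0.18, FDR = 0.017), and Rhox9 from 358 and 380 to 618, 614 and 687 CPM (0.82 ± 0.14, FDR = 0.0460). Every E10.5 pool was above both E9.5 pools in each of the 11. How the counts are split among the Rhox2 copies is uncertain, because these genes are near copies of each other.

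Transcribed bases of the copies, to which reads are assigned, were not compared. The RefSeq promoter windows show only how alike the copies are before their start sites. The 250 bases before the start site of Rhox2a and Rhox2e are printed for that reason, 5′ to 3′ on the strand of the gene (GRCm38.p6), with each CG dinucleotide, the site of DNA methylation, in capitals.
Rhox2a, chrX:37244742-37244991, plus strand: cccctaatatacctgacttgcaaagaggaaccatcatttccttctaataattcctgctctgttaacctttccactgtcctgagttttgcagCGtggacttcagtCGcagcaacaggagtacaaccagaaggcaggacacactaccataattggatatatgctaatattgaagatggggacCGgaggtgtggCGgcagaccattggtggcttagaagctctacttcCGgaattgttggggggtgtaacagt
Rhox2e, chrX:37530218-37530467, plus strand: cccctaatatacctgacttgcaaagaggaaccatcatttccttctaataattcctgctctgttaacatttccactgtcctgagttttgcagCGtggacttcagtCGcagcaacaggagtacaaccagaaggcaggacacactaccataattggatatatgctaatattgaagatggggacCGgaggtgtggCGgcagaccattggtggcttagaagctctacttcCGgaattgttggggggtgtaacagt
They are 99.6% identical. Over the 21 pairs of the 7 Rhox2 promoters listed, identity ran from 71.6% to 99.6% with a median of 85.9%. The start sites of the copies are not all annotated at the same base, and window ends without a partner count as differences. For Rhox2a and Rhox2b, at 83.8%, the shared stretch is the same and only the ends differ. The range and median therefore understate how alike the copies are.

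Of the 33 genes that rose, 32 have a chromosome in the annotation and 13 of these are X-linked, 40.6%, against 3.74% of all genes tested. Of these 13, 11 are the Rhox genes above, which lie in the same cluster and include near copies with uncertainly split counts. The 40.6% is therefore not a share of independent genes and cannot be set directly against the 3.74%. Outside the Rhox cluster the X-linked calls were Mageb16 and Xlr3c, members of families with several X-linked copies. Mageb16 stood at 40.3 and 34.996 CPM and at 113.1, 105.8 and 109.2 CPM (1.57 ± 0.20, FDR = 0.0112). Xlr3c stood at 5.20 and 5.14 CPM and at 27.9, 18.5 and 31.6 CPM (2.36 ± 0.36, FDR = 0.0242). As a whole the X chromosome gave 3.18% and 3.20% of UMIs at E9.5 and 3.40%, 3.48% and 3.14% at E10.5. Without the Rhox genes and Xist these were 3.05%, 3.06%, 3.14%, 3.20% and 2.81%. Sex composition was not matched in these comparisons. In Y-low cells the whole X chromosome gave 3.22% and 3.24% of UMIs at E9.5, and 3.40% and 3.48% in E10.5 replicates 1 and 2. In Y-high cells it gave 3.16% and 3.17% at E9.5 and 3.08% in E10.5 replicate 3. The part of sex composition in the X-linked share was not tested. Within Y-low cells Rhox5 and Mageb16 passed the threshold, and the other X-linked calls kept their direction without passing.

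Among 19 early PGC identity factors, 3 rose and none fell (DESeq2: 3 and 0; unadjusted p under 0.05: 3 and 3). All 3 were members of the Dppa family, which marks pluripotent and early germ cells. Dppa2 and Dppa4, neighbours on chromosome 16 (chr16:48303908-48319723 and chr16:48283733-48294237) whose proteins bind chromatin together, rose side by side. Dppa4 was at 100.02 and 71.6 CPM at E9.5 and at 256, 318 and 423 CPM at E10.5, a log2 fold change of 1.98 ± 0.22 (FDR = 0.00642). Dppa2 was at 46.4 and 50.05 CPM and at 123.6, 185 and 147.2 CPM (1.67 ± 0.21, FDR = 0.0107). Dppa5a, which encodes an RNA-binding protein of pluripotent cells, was already abundant at 828 and 852 CPM and reached 1301, 1388 and 1623 CPM (0.80 ± 0.13, FDR = 0.0458).

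The core of the PGC program did not pass the test in either direction. Dppa3, from which one of the sorting reporters derives, was at 861 ± 57 CPM at E9.5 (SD, n = 2) and 856 ± 50 CPM at E10.5 (SD, n = 3), with a log2 fold change of 0.02 ± 0.14. Prdm1, the repressor that starts the germ cell fate and the source of the other reporter, was at 151 and 109.03 CPM and at 93.4, 89.4 and 81.2 CPM (-0.53 ± 0.19, FDR = 0.463). These pools did not overlap, but the difference missed the threshold. Its partners Prdm14 and Tfap2c had log2 fold changes of -0.31 ± 0.23 and -0.25 ± 0.16. Nanos3 and Dnd1, RNA-binding proteins that keep migrating PGCs alive, had 0.33 ± 0.20 and 0.04 ± 0.22. Kit, the receptor for the survival and guidance signal of migrating PGCs, was at 183 and 156 CPM and at 94.3, 161 and 90.4 CPM (-0.54 ± 0.23, FDR = 0.584), and its pools overlapped.

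Of 19 pluripotency factors tested, Tcl1 alone rose (DESeq2: 2 higher, 0 lower; unadjusted p under 0.05: 2 and 1). Tcl1, a co-activator of the kinase AKT, went from 133.9 and 124.3 CPM to 214, 299 and 277 CPM (1.05 ± 0.17, FDR = 0.0372). Pou5f1 stood at 337 ± 30 CPM at E9.5 (SD, n = 2) and 323 ± 30 CPM at E10.5 (SD, n = 3), a log2 fold change of -0.04 ± 0.16. Sox2 had -0.31 ± 0.15 and Nanog 0.24 ± 0.18, and neither passed. Zfp42, a zinc finger gene of pluripotent cells named after its values were seen, was at 84.7 and 95.8 CPM and at 162, 182 and 155 CPM, just outside the threshold (FDR = 0.0778). The list median was 0.11, against 0.02 over all genes tested.

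Genes used later in germ cell life gave a further group. Of 22 late germ cell genes tested, 2 rose and none fell (DESeq2: 7 and 0; unadjusted p under 0.05: 12 and 1), and in 10 every E10.5 pool was above both E9.5 pools. The list median was 1.07. Tex19.1, a gene needed for transposon control and meiosis, stood at 35.5 and 40.9 CPM at E9.5 and at 113.2, 184 and 229 CPM at E10.5 (2.21 ± 0.28, FDR = 0.0107). Rpl39l, the germ cell version of a ribosomal protein gene, stood at 39.1 and 25.4 CPM and at 83.1, 142.4 and 252 CPM (2.33 ± 0.39, FDR = 0.0447). The spread among the E10.5 pools was wide for Rpl39l, and the lowest of them was still above both E9.5 pools.

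Dazl, the RNA-binding protein that commits PGCs to a germ cell fate in the gonad, was at 2.39 and 2.71 CPM at E9.5 and at 9.93, 14.8 and 50.4 CPM at E10.5. Its log2 fold change of 3.31 ± 0.65 missed the threshold (FDR = 0.0782). Ddx4, a helicase of the germ plasm, was at 22.8 and 17.4 CPM and at 27.7, 62.6 and 66.4 CPM (1.40 ± 0.35, FDR = 0.192). Mael, which acts in transposon silencing, was at 3.80 and 5.31 CPM and at 2.77, 7.05 and 25.8 CPM, with overlapping pools (FDR = 0.703). Sycp3, of the meiotic chromosome axis, was at or under 2.13 CPM in every pool.

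Of 19 genes of piRNA and transposon control tested, 1 rose and none fell (DESeq2: 4 and 0; unadjusted p under 0.05: 7 and 1), and the list median was 1.27. The gene that rose was Asz1, which anchors the piRNA machinery at mitochondria, from 2.02 and 5.45 CPM to 29.1, 37.8 and 46.6 CPM (3.34 ± 0.46, FDR = 0.0158). Fkbp6, Piwil2 and Gpat2, of the same pathway and named after their values were seen, had FDR of 0.0793, 0.567 and 0.199.

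**Figure D2:**
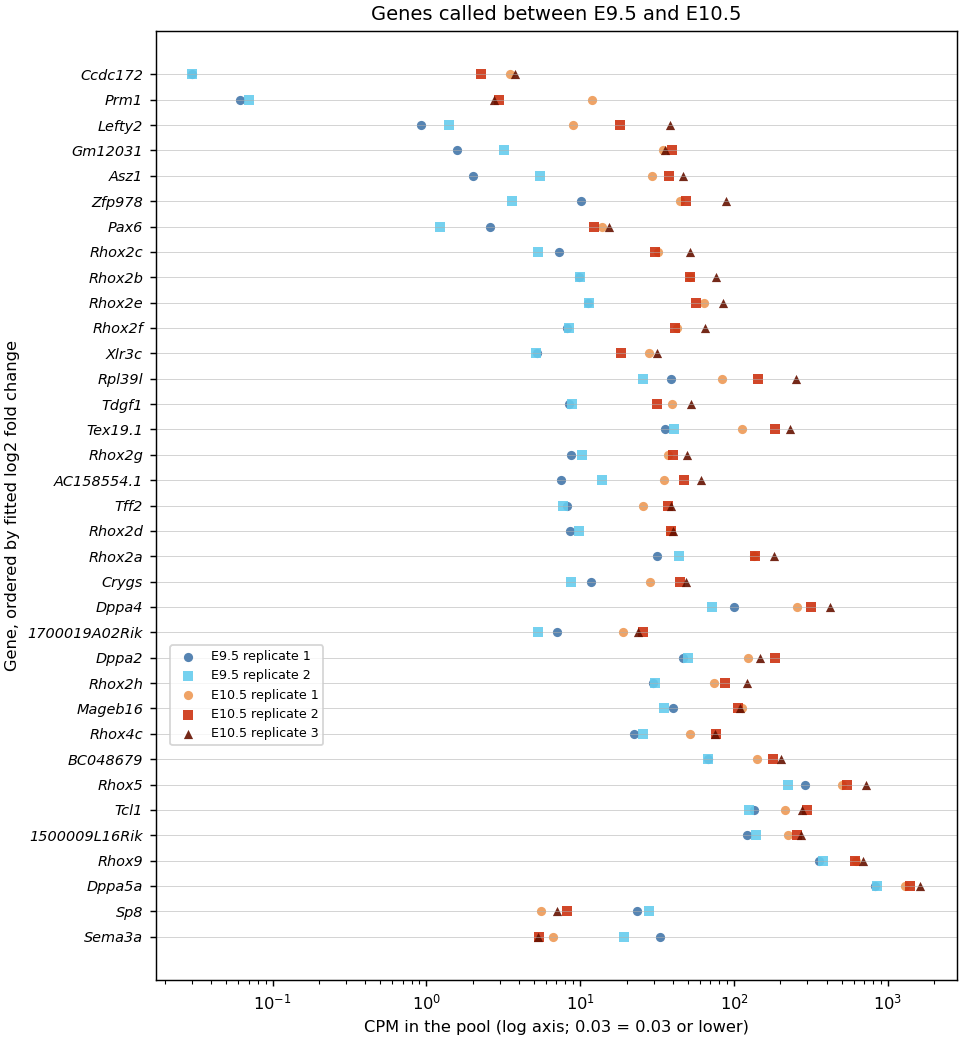
CPM in each pool (log axis) for the 35 genes past the threshold, ordered by fitted log2 fold change; each symbol is 1 pool, and the E9.5 pools of Ccdc172, at 0, are drawn at the lower end of the axis. In the 33 upper rows the 3 E10.5 pools lie to the right of both E9.5 pools, and in Sp8 and Sema3a they lie to the left.

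Promoter sequences of 3 of these genes and of Dazl are printed because CG-rich promoters are where DNA methylation is known to silence germline genes. Each is the 250 bases before the RefSeq start site (GRCm38.p6), with CG dinucleotides in capitals.
Tex19.1, chr11:121145893-121146142, plus strand: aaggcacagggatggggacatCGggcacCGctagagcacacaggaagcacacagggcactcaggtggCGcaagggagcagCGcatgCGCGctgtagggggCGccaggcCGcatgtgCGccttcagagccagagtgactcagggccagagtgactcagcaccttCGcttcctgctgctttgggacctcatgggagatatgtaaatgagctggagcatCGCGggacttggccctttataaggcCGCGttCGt
Asz1, chr6:18109062-18109311, minus strand: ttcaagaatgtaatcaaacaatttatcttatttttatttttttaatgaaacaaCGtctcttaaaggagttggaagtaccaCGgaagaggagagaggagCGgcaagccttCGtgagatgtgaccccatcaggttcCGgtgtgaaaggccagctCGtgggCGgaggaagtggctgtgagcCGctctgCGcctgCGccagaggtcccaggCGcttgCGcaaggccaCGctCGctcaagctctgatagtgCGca
Rpl39l, chr16:10169978-10170227, plus strand: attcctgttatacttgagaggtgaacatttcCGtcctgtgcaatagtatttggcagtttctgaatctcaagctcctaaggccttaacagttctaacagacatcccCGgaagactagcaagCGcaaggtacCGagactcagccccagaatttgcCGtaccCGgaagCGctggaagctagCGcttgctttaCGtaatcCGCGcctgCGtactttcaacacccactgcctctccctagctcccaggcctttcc
Dazl, chr17:50293621-50293870, minus strand: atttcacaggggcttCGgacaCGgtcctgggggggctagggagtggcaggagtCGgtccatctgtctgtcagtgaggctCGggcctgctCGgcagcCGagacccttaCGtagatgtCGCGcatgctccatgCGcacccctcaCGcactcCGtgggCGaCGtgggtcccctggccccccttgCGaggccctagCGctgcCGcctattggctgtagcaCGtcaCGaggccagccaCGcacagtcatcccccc
They hold 15, 15, 12 and 20 CG dinucleotides. Of 32851 mouse promoter windows of this length, with a median of 6, 27.3%, 27.3%, 33.5% and 17.9% hold at least as many. The Rhox2a window shown above holds 5. Over the 24 called genes that rose and have a window (25 windows), the median was 5. No methylation was measured in these cells.

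Of 24 genes of BMP, Nodal and FGF signalling, 2 rose and none fell (DESeq2: 4 and 0; unadjusted p under 0.05: 5 and 2). The list median was 0.21. Tdgf1, the co-receptor for Nodal, rose from 8.48 and 8.79 CPM to 39.2, 31.5 and 52.9 CPM (2.28 ± 0.32, FDR = 0.0159). Lefty2, a secreted antagonist that Nodal itself induces, rose from 0.918 and 1.41 CPM to 9.02, 18.2 and 38.4 CPM (4.24 ± 0.63, FDR = 0.0240), a call that was lost with cells thinned to equal depth (FDR = 0.0566). The ligand Nodal (13.9 and 10.3 CPM, then 27.5, 26.5 and 35.96 CPM, FDR = 0.111) and Lefty1 (3.92 and 2.67 CPM, then 7.37, 12.8 and 36.2 CPM, FDR = 0.172) did not pass, although their pools did not overlap. These last 2 genes were named after their values were seen.

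Of 20 Wnt targets and pathway genes tested, 1 fell and none rose (DESeq2: 2 lower, 0 higher; unadjusted p under 0.05: 3 and 0). Sp8, a zinc finger factor of limb and tail buds, went from 23.5 and 27.9 CPM to 5.54, 8.21 and 7.06 CPM (-1.87 ± 0.32, FDR = 0.0482). The second gene that fell over all genes was Sema3a, a secreted guidance cue (chr5:13125414-13602565), from 33.2 and 19.3 CPM to 6.70, 5.37 and 5.35 CPM (-2.13 ± 0.35, FDR = 0.0372). Sema3a lies outside the lists and is given because it completes the falls. Cdx2, a factor of the posterior embryo and hindgut named after its values were seen, was at 17.1 and 20.4 CPM and at 4.88, 2.49 and 5.07 CPM (-2.15 ± 0.42, FDR = 0.0778). Brachyury (T) was at most 0.808 CPM in every pool.

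Among 8 neural markers tested, 1 rose (DESeq2: 3 higher, 0 lower; unadjusted p under 0.05: 3 and 0): Pax6, a factor of the eye and neural tube, from 2.57 and 1.23 CPM to 13.9, 12.4 and 15.4 CPM (2.91 ± 0.47, FDR = 0.0372). The summed level of the 11 markers was 26.2 and 23.3 CPM at E9.5 and 59.4, 67.9 and 61.5 CPM at E10.5, and whether other cells had a part in it was not tested.

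The genes that handle DNA methylation and chromatin did not pass the test. Of 23 tested, edgeR called none and DESeq2 none, with 1 higher and 1 lower at an unadjusted p under 0.05. Dnmt3a, which adds new methylation, was at 60.6 and 61.5 CPM and at 57.2, 71.4 and 45.01 CPM (-0.05 ± 0.24). Dnmt3b, its partner, was at 6.21 and 1.02 CPM and at 2.95, 2.04 and 14.8 CPM. Uhrf1, a factor needed for copying methylation to new strands, was at 25.1 and 9.39 CPM and at 21.1, 14.1 and 26.5 CPM. Tet1 and Tet2, which oxidise methylated cytosine, had log2 fold changes of 0.25 ± 0.20 and 0.41 ± 0.30. For Tet1 the pools overlapped.

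Migration genes gave no call either. Of 24 tested, edgeR and DESeq2 called none, with 1 higher and 3 lower at an unadjusted p under 0.05. Cxcr4, the receptor for the chemokine that draws PGCs to the gonad, was at 16.5 and 9.71 CPM and at 8.07, 12.1 and 14.2 CPM (-0.16 ± 0.38). Pecam1, an adhesion molecule of PGCs and endothelium, was at 104.1 and 98.7 CPM and at 158, 146.8 and 112.1 CPM (0.48 ± 0.20, FDR = 0.557). Mki67, of dividing cells, was at 227 and 154 CPM and at 126.6, 228 and 152 CPM.

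**Figure D3:**
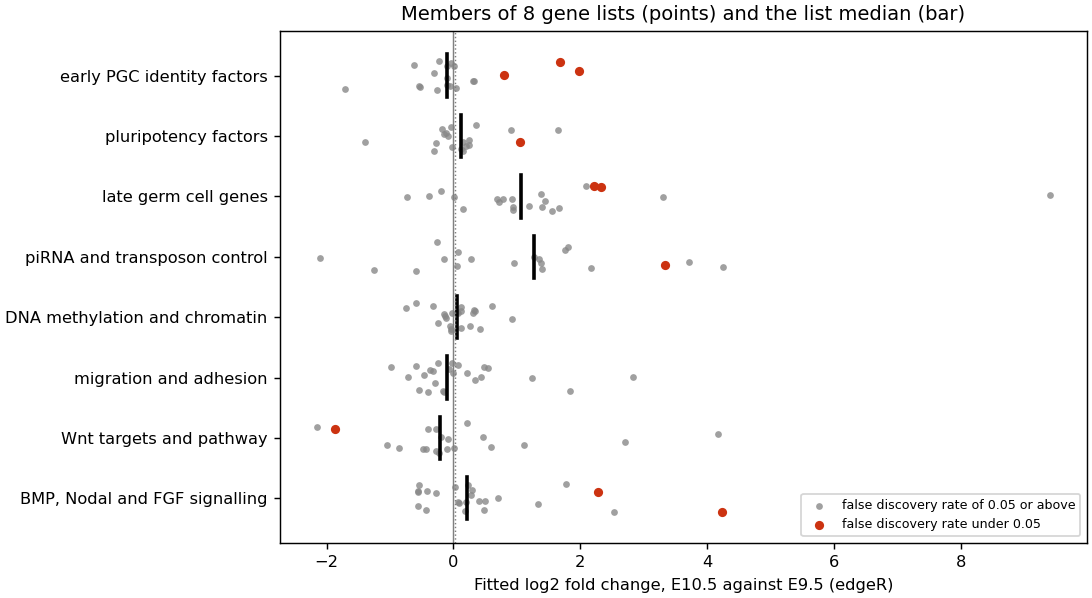
Fitted log2 fold changes of the members of 8 gene lists (points), with those under an FDR of 0.05 in red and the list median as a bar; the dotted line is the median of all 15676 genes tested, 0.02. The medians of the late germ cell and piRNA lists, 1.07 and 1.27, lie furthest to the right of these 8 lists. Lists of other cell types, not drawn, had medians of 2.71 for globins, 2.60 for yolk sac endoderm, 1.84 for endothelial and haematopoietic and 1.69 for neural markers.

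In the lists not described so far edgeR called nothing. DESeq2 counts take in members that edgeR's filter on low counts left out. At an unadjusted p under 0.05 and by DESeq2 they gave, as higher and lower, 2 and 1 against 1 and 0 of 15 retinoic acid genes, 0 and 3 against 0 and 0 of 30 imprinted genes, and 4 and 3 against 1 and 3 of 24 glycolysis genes. The same counts were 1 and 1 against 1 and 0 of 20 cell death and p53 genes, 4 and 0 against 2 and 0 of 20 immediate early and heat shock genes, 0 and 1 against 0 and 0 of 22 Hox genes, 1 and 0 against 1 and 0 of 43 G1/S genes, and 0 and 0 against 0 and 0 of 53 G2/M genes. Slc16a3, which exports lactate and was named after its values were seen, had the lowest FDR of the glycolysis list (0.149), at 59.5 and 60.9 CPM and at 30.5, 30.8 and 30.4 CPM.

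The marker lists of other cells gave no call besides Pax6. At an unadjusted p under 0.05 and by DESeq2, as higher and lower, they had 6 and 0 against 0 and 0 of 8 globins (DESeq2 gave no adjusted p for 3 of these), 1 and 0 against 2 and 0 of 8 other erythroid genes, 6 and 0 against 2 and 0 of 9 yolk sac endoderm genes (no adjusted p for 3), and 0 and 1 against 0 and 1 of 12 gut endoderm genes. Endothelial and haematopoietic genes gave 2 and 0 against 0 and 0 of 11, mesenchyme and coelomic genes 1 and 1 against 1 and 0 of 17, and X inactivation and Y-linked genes 0 and 0 against 0 and 0 of 5 (no adjusted p for 2). Yolk sac endoderm markers summed to 38.1 and 29.2 CPM at E9.5 and to 41.5, 37.7 and 695 CPM at E10.5. Gut endoderm markers summed to 115.2 and 82.1 CPM and to 37.96, 28.7 and 437 CPM. Hba-x, the embryonic alpha globin, was at 2.76 and 1.55 CPM and at 0, 1.03 and 157 CPM. Hbb-y, Hbb-bh1, Hba-a1, Hba-a2 and Hbb-bt were likewise highest in E10.5 replicate 3, at 151, 121.7, 165, 142.9 and 46.7 CPM. Hbb-bs (8.05 CPM there, 12.4 CPM in E9.5 replicate 2 and in E10.5 replicate 1) and Hbq1a (1.40 CPM) were not, Hbq1b was at most 0.218 CPM, and Hbb-bh2 had no UMI. Without the 24-cell library 34 genes rose and 1 fell, and 33 of the 35 calls remained. Sp8 (FDR = 0.0507) and Prm1 were lost.

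The remaining calls are named here because they complete the set. Zfp978, a zinc finger gene on chromosome 4, was at 10.1 and 3.62 CPM and at 44.8, 49.1 and 89.3 CPM (3.19 ± 0.46, FDR = 0.0170). Crygs, a crystallin of the lens, and Tff2, a mucosal peptide, had log2 fold changes of 2.01 ± 0.32 and 2.11 ± 0.30. Ccdc172 had no UMI at E9.5 and stood at 3.51, 2.26 and 3.79 CPM at E10.5, at least 32.3-fold higher against a floor of 3 UMIs per E9.5 pool. Prm1, a protamine of sperm chromatin, had 2 and 2 UMIs at E9.5 and 338, 91 and 88 at E10.5, and its FDR of 0.0458 became 0.293 without the 24-cell library. Another 5 of the 33 carry only provisional names and are not described.

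Sex composition moved with the comparison, since the E10.5 pools other than replicate 3 were almost wholly Y-low while both E9.5 pools were mixed. Within Y-low cells (40 and 42 cells at E9.5, 89 and 94 in E10.5 replicates 1 and 2, without the 28 of replicate 3, where 15 cells lay between the classes), 8 genes rose and 1 fell by edgeR, 0.0561% and 0.00701% of those tested. The 8 were Dppa4, Dppa2, Tex19.1, Rpl39l, Dppa5a, Rhox5, Mageb16 and 1 with a provisional name, and all are among the 33. Dppa4 had 111.8 and 83.3 CPM in Y-low cells at E9.5 and 261 and 318 CPM at E10.5 (1.603 ± 0.17, FDR = 0.0358). Tex19.1 had 33.9 and 46.5 CPM and then 115.8 and 184 CPM (1.92 ± 0.26, FDR = 0.0441). The gene that fell, Hand1, had 13.4 and 5.61 CPM and no UMI in the E10.5 Y-low cells, and it was not called over all cells. The Y-low sums of E10.5 hold nearly all cells of those pools, so they are not independent of the calls over all cells. In cells with a Y-linked UMI and fewer Xist than Y-linked UMIs, of which E10.5 replicates 1 and 2 held 17 and 29, 4 genes rose and none fell (edgeR). Only 3 and 0 cells of those replicates were Y-high, so nearly all of the 17 and 29 were Y-low. This setting therefore does not compare like classes.

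The library numbers give a further grouping. The E9.5 pools and E10.5 replicate 2 come from libraries of one numbered series, and E10.5 replicates 1 and 3 from 2 others. Against E10.5 replicate 2 alone, within that series, 31 of the 35 passed, with the spread taken from the 2 E9.5 pools and with a pool that had itself entered the calls. In 26 of the 33 rises the highest E10.5 pool was replicate 3, which held for 37.9% of all genes tested.

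Levels on either side of the comparison were read from cells of the same gate. At E8.5 replicate 2 was used, where 94 of 95 cells had at least 5 of the 8 markers. The other E8.5 pools held 9675 and 6717 CPM of yolk sac endoderm markers and were left aside. At E11.5 there were 79 and 72 cells. E8.5 replicate 2 was below both E9.5 pools in 29 of the 33 genes that rose, against 30.2% of all genes tested. Both E11.5 pools were above both E9.5 pools in all 33, against 23.4%, and above every E10.5 pool in 13, against 14.9%. The 33 were chosen for low levels at E9.5, which bears on the comparison with E11.5. Dppa4 ran from 8.59 CPM at E8.5 through the levels above to 365 and 400 CPM at E11.5, between the E10.5 pools. Lefty2 ran from 1.42 CPM to 162 and 156 CPM, and Dazl from 1.67 CPM to 335 and 239 CPM, several times their highest E10.5 pool. Sp8 was at 25.7 CPM at E8.5 and at 2.71 and 2.71 CPM at E11.5. These neighbours were not tested.

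**Figure D4:**
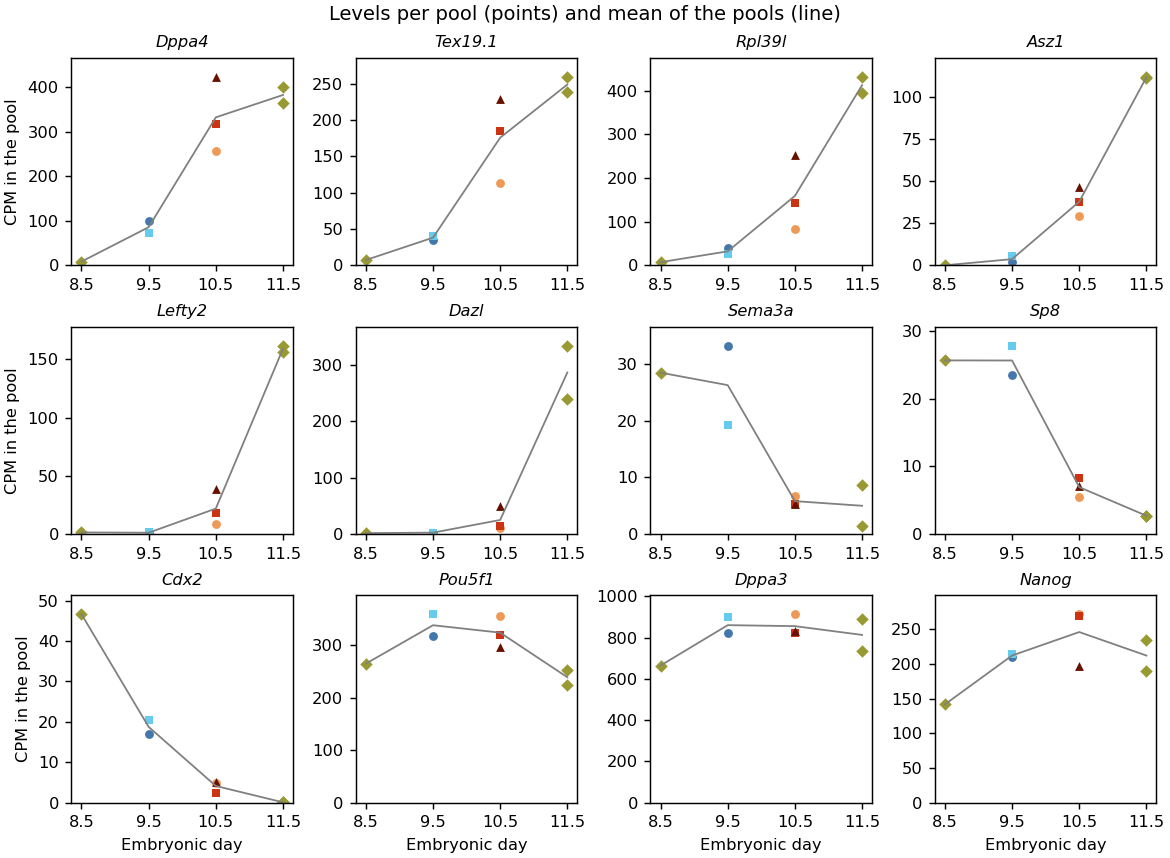
CPM per pool of 12 genes from E8.5 to E11.5 (points, diamonds at E8.5 and E11.5, other symbols for the replicates of E9.5 and E10.5; grey line, mean of the pools; linear axes from 0). Dppa4 and Tex19.1 had most of their rise by E10.5, Lefty2 and Dazl were highest at E11.5, Sp8 and Cdx2 went down, and the pools of E9.5 and E10.5 overlapped in Pou5f1, Dppa3 and Nanog.

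Within a pool the cells differed widely. At E9.5 the median cell had 38.6 and 21.9 CPM of Dppa4 in replicates 1 and 2, while the 90th percentile was 234 and 195 CPM. At E10.5 the median cells had 271, 334 and 439 CPM, each above that percentile of either E9.5 pool. Tex19.1 was at 7.31 and 6.90 CPM in the median E9.5 cell and at 69.6, 141.8 and 205 CPM at E10.5. The E8.5 cells of replicate 1 with fewer than 5 of the 8 germ markers had a median of 9.36 CPM of Tex19.1. Their 90th percentile was 104.3 CPM, in a pool rich in yolk sac endoderm markers, so they are no blank. The E9.5 medians were not above that median, but they were above the 0 CPM of the median cell in E8.5 replicate 2. After thinning to 50000 UMIs per cell, which left out 1 to 4 cells per pool, Lefty2 had a UMI in 2 of 93 and 3 of 92 cells at E9.5 and in 17 of 88 cells, 22 of 93 cells and 57.4% of the cells of replicates 1, 2 and 3 at E10.5. Without thinning it was 5 of 96, 10 of 94, 39 of 92 and 52 of 94 cells, and 87.3% of replicate 3. Dazl had a UMI in 5 of 93 and 4 of 92 thinned cells and in 18 of 88, 17 of 93 and 52.2% of the thinned cells at E10.5. In the low-marker E8.5 cells of replicate 1, thinned alike, 2 of 37 had a Lefty2 and 5 of 37 a Dazl UMI. Their median depth was 414586 UMIs before thinning.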

How the data were processed

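Single cells were profiled by a modified STRT-seq protocol. The authors trimmed reads, moved cell barcodes and UMIs into the read names with UMI-tools, aligned to mm10 with STAR and assigned reads to genes with featureCounts. They deposited raw UMI counts per gene and cell, with tables of genes and UMIs per cell. No GEO label gives a condition, so embryonic day, gate and replicate come from the deposited cell names. Cells were kept above 2000 genes and from 10000 to 1000000 UMIs, and no doublet caller was run, since cells were picked singly. All pools drew on the same 96 cell barcodes, 1 set per library.

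UMI counts were summed per pool and tested with edgeR 4.0.16 in R 4.3.3 (TMM, filterByExpr, quasi-likelihood test, Benjamini-Hochberg over all 15676 genes tested). Standard errors are the log2 fold change over the root of F. DESeq2 1.42.0 was an alternative. Positions and chromosomes come from GENCODE M21 (GRCm38), another release than the one used for counting. Whether counting used strand is not given in the sources used here, so Pax6, Sema3a, Zfp978, Xlr3c, Rhox2c and Prm1, which overlap other genes, share that uncertainty.

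Members and the 24 lists were chosen with earlier results of these data known. Named were the 12 largest rises and falls called by FDR whose pools did not overlap and whose average level on the log2 CPM scale reached 4 (12 rises, 1 with a provisional name, and 0 falls), the 2 smallest p values per list and direction, and a fixed set of PGC genes and globins. Y classes and other settings chosen after seeing the data are named as such in the closing section. Replicate numbers shared by the time-points did not pair the pools (correlations of deviations -0.04 and 0.06).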

Additional observations from a re-analysis of the deposited data

Results flagged for a closer look

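The change from E9.5 to E10.5 differed between Y-high and Y-low cells, by a test of the difference itself: of 17183 genes, 86 had a larger log2 change in Y-high cells and 35 a smaller one (edgeR quasi-likelihood test of the interaction, FDR under 0.05). The fit took the Y-high cells of E10.5 from replicate 3 alone, since replicate 1 had 3 and replicate 2 had 0. Class and replicate therefore cannot be told apart, and the difference cannot be assigned to the Y class. Each E9.5 pool entered as a Y-high and a Y-low sum without a term for the pool, so sums of 1 library counted as independent samples. The genes with the smallest p included Ttr and Apoa1 of the yolk sac endoderm and Hbb-y and Hba-x of embryonic red cells, all highest in the Y-high cells of E10.5 replicate 3. In a fit without its 24-cell library 78 of 16938 genes passed, 72 of them also called with all libraries, and Hbb-y and Hba-x were not among them (FDR of 1 for both), while Ttr stayed at a difference of 8.15 ± 0.95 (log2, SE). None of the 35 genes called over all cells passed the interaction test with all libraries. The 86 include Eif2s3y and Uty, which define the classes and are no result.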

How the results depend on the processing

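Every one of the 35 called genes kept its direction in all the alternatives that gave it a value. The 35 calls became 366 (83 falls) without a filter on low counts, 368 (79 falls) by DESeq2, 179 (62 falls) with a replicate block, 4 in cells with Y-linked UMIs and 6 at an FDR of 0.01. Leaving out 1 pool gave 0 to 56 calls: 0 without either E9.5 pool, and 56, 17 and 42 without E10.5 replicate 1, 2 or 3, where a lone pool is assumed to vary like the others. Under upper quartile and RLE normalization, thinned cells, germ marker cells, cells under 1 percent globin and removal of globin genes, 27 to 44 genes were called. The limit of 1 percent globin removed no cell, as the highest cell had 0.910%. The germ marker setting kept 91 of the 92 cells of E10.5 replicate 1 and all cells of the other pools. Those fits therefore repeat the main one or nearly so, and are no check of it. Of the 35, RLE lost 8 (among them Rpl39l, Sp8 and Rhox4c), thinning 6 (among them Lefty2 and Sema3a) and the block 3 (Dppa5a, FDR = 0.706, Rhox9 and 1 with a provisional name).

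Settings chosen after seeing the data gave 9 calls in Y-low cells, 652 in Y-high cells, 163 (37 falls) with the Y class as a covariate and 339 (196 rises) for E10.5 replicate 2 only, and 35 to 49 under the other 3. In Y-low cells 8 of the 35 stayed past the threshold and in cells with Y-linked UMIs 4 did. The replicate block, whose numbers do not pair the pools, gave log2 changes of -2.28 for Hba-x and -4.22 for Hbb-y, past the threshold and opposite in sign to the values without it. Replicate 3 exists at E10.5 only and adds nothing to a blocked contrast, and leaving it out also turned both negative, without passing the threshold.

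Mean globin load was 38.95 CPM at E9.5 and 291 CPM at E10.5, the latter 39.7 to 427 CPM with 1 pool left out. The mean Y-linked level at E10.5 was 3.58 to 92.5 CPM in the same way. The germ cell marker content, E9.5 against germ cell marker content, E10.5, was 100% and 99.6% of cells, and 98.96% and 97.01% without a cell filter. As a mean over cells of the share of the 8 markers it was 98.9% at both. Levels under about 0.1 CPM, 3 UMIs per pool, cannot be told from 0.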
